A study of Mus musculus and Homo sapiens with 30 samples.

Results

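The peroxisome proliferator-activated receptors (PPARs), their partner receptor and 3 genes widely read as sentinels of their activity were followed through 3 breast cell lines given adipocyte secretome. Of 56980 mouse gene IDs, 7 were members: the receptors Ppara, Ppard and Pparg, the partner Rxra, and the targets Angptl4, Pdk4 and Ucp2. Of 61552 human IDs, 5 were members: PPARA (ENSG00000186951), PPARD (ENSG00000112033), PPARG (ENSG00000132170), ANGPTL4 (ENSG00000167772) and PDK4 (ENSG00000004799). They were chosen by name with earlier results of these data known, and human RXRA and UCP2 were not analysed here.

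Poly(A) RNA was sequenced from 30 libraries: 12 of SkBr3, a human breast cancer line (4 per medium), and 9 each of the mouse lines E0771, a mammary cancer line, and NMuMG, a mammary gland epithelial line (3 per medium). After 36 h of growth the cells spent 16 h in their usual medium (control), or in a mix of that medium with 50% lean or 50% obese inguinal adipocyte secretome, the medium conditioned by fat cells. SkBr3 and E0771 grew in DMEM with 10% FBS. For NMuMG the labels also list glucose (4.5 g/L) and insulin (10 mcg/ml), and they state neither amount for the other lines. The mouse lines thus differed in their labelled medium as well as in origin. The species of the adipocytes is not stated in the labels and the control held no secretome, so lean against obese is the comparison matched for its share of secretome.

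PPARs are nuclear receptors that bind fatty acids and their derivatives, pair with a retinoid X receptor such as Rxra, and switch genes of lipid storage and fatty acid oxidation. Ppara is best known in liver and other tissues that burn fat, Pparg in adipocytes, and Ppard is present in most tissues. Angptl4 is a secreted inhibitor of lipoprotein lipase, Pdk4 a mitochondrial kinase that shuts down pyruvate dehydrogenase and spares glucose, and Ucp2 a carrier of the inner mitochondrial membrane.

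The heterodimer of a PPAR with an RXR binds a direct repeat of AGGTCA with 1 base between the copies. RefSeq (GRCm38.p6) gave 9 upstream windows of 250 bases for 6 of the 7 mouse members. Both strands were searched for the half-site AGGTCA, exactly, and for AGGTCANAGGTCA with up to 2 mismatches. Of 32851 windows of that length, 14% held the half-site and 3.24% the repeat. The windows below belong to Pdk4 and Ppard, which rose with the lean secretome in NMuMG, and to the second start of Rxra, the only member window holding a match to the repeat. Capitals mark the matches.
Pdk4, chr6:5496279-5496528, minus strand: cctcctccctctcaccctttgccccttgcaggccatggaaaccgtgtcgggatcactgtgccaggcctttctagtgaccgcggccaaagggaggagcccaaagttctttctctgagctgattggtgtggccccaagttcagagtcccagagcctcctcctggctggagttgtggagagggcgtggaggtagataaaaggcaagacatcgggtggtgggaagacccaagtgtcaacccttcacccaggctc
Ppard, chr17:28232504-28232753, plus strand: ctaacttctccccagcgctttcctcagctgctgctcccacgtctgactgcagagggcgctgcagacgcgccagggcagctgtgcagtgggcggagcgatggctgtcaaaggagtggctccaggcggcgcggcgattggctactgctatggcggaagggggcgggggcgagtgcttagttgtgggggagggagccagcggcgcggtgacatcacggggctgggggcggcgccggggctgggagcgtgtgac
Rxra, second start, chr2:27709042-27709291, plus strand: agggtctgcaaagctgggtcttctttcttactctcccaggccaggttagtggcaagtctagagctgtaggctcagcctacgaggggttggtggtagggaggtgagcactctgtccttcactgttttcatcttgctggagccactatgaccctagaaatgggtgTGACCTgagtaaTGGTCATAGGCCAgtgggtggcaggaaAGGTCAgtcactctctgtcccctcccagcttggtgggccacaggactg

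The Rxra window held TGGTCATAGGCCA, which begins 75 bases before the start with 2 mismatches to the repeat, and half-sites 48 and 87 bases before the start, the latter on the other strand as TGACCT. The Pparg windows held a half-site 28 bases before the first start and 9 bases before the second. No match lay in the windows of Pdk4, Ppard, Ppara or Ucp2, in the first of Rxra or in the third of Pparg, which says only that these letters are not in these 250 bases. An exact repeat would also hold the half-site, so the searches overlap.

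Library totals ran from 18479433 to 31094119 counts. The first principal component set the lean libraries apart in each line, and obese replicate 1 lay nearest to them among the obese libraries of all 3 lines. Lean replicate 3 of SkBr3 lay lowest among its group (17.6 on that component, against 29.7 to 40.9). The labels list every line as breast cancer. NMuMG carried mammary epithelial markers, with a summed level, in counts-per-million units (CPM), of 7213 to 7632 in control, 6832 to 7124 in obese and 7907 to 8186 in lean libraries, whereas in E0771 Krt8 was the one marker of 8 above 1 CPM, and Krt19 and Esrp1 were at 0 in all 9 libraries. Since RNA was bulk, fewer cells of a type and less RNA per cell cannot be told apart. Nothing in the labels says that replicates were separate cultures, so p-values measure the spread between these libraries, which may be technical.

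Each line was fitted alone with edgeR's quasi-likelihood test, and a gene was called at a Benjamini-Hochberg adjusted p under 0.05 over all genes tested. Angptl4 rose with the lean secretome in all 3 lines, and the Ppar genes changed in ways that differed by line. A filter on low counts passed all 5 members of SkBr3, all 7 of NMuMG and 3 of the 7 of E0771 (Ppard, Rxra and Angptl4). With lean secretome against control, SkBr3 had 5 of 5 members called (48.8% of all genes tested), E0771 had 3 of 3 (56.3%) and NMuMG had 4 of 7 (38.2%). For lean against obese the counts were 5 of 5 for SkBr3 (44.1%), 3 of 3 for E0771 (52.7%) and 4 of 7 for NMuMG (35.0%). So many genes moved with the lean secretome that these counts by themselves do not mark out the members, and the sizes below carry the description. Groups without overlapping libraries were common too. For lean against control they made up 61.4% of E0771 genes, 48% of NMuMG genes and 41.8% of SkBr3 genes. Lean against obese gave 60.3%, 45.2% and 34.9% in that order, and obese against control 21.5%, 21.3% and 10.9%. A lack of overlap with the lean libraries therefore does not by itself mark out a member.

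Obese secretome against control gave 2 of 5 members for SkBr3 (1.16% of all genes), 0 of 3 for E0771 (2.61%) and 2 of 7 for NMuMG (5.01%). In E0771, 2 of the 3 had an unadjusted p under 0.05 in edgeR, and DESeq2 called 0. The lean and obese effects against control share their control libraries.

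**Figure D1:**
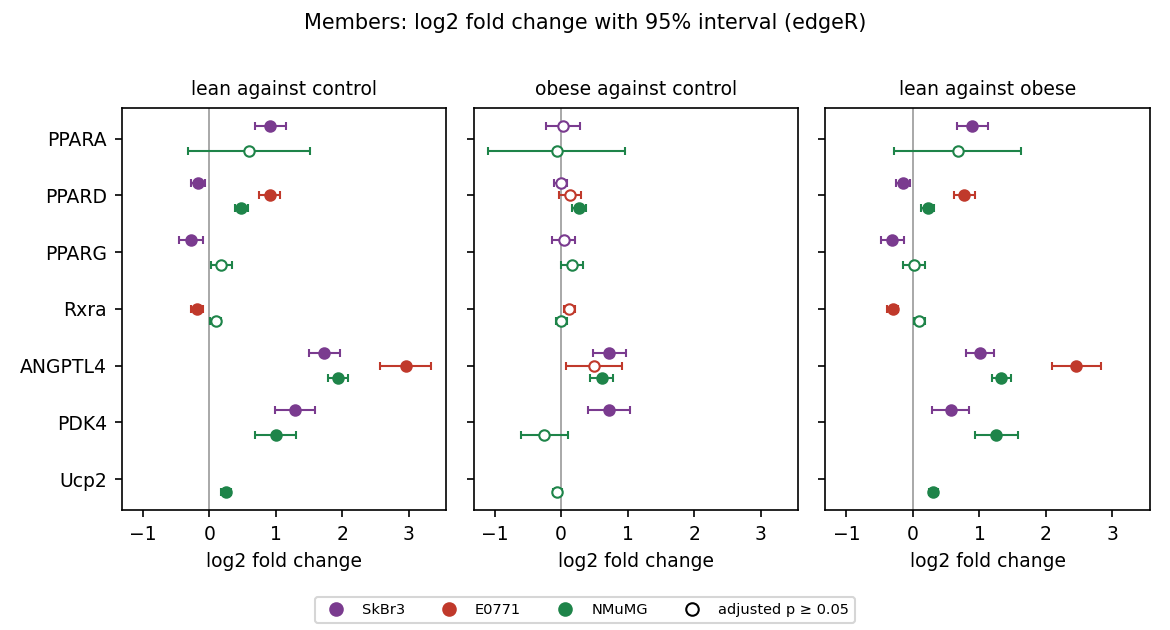
Log2 fold change of each member that passed the filter (x axis) for lean against control, obese against control and lean against obese; bars are 95% intervals from edgeR, filled points have an adjusted p under 0.05, and colours mark the line. ANGPTL4 or Angptl4 lies furthest right of the members in the lean against control panel in all 3 lines, at 1.73, 2.96 and 1.94, and the wide intervals are those of NMuMG Ppara, which rests on 5 to 16 counts per library.

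The lines differed first in which receptors they transcribed. In E0771, Ppara and Pparg had 0 counts in all 9 libraries, out of 242890182 counts in all, and so did the target Pdk4. The 3-count limit for a library with 0 lay between 0.0965 and 0.131 CPM. Against the highest such limit among the E0771 controls, the NMuMG controls were at least 150-fold higher for Pparg, at least 20.8-fold higher for Pdk4 and at least 2.28-fold higher for Ppara. These folds set lines grown in different media side by side and were not tested.

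Scaled for exon length (GENCODE M21), the Ppar RNA of E0771 was therefore Ppard alone at this depth. In NMuMG controls, Ppard made up 51.7% of the summed RPKM, that is CPM per kilobase of exon, of the 3 receptors (range 49.9% to 52.9%), Pparg 47.7% and Ppara 0.564%. With the lean secretome the Ppard share was 56.9% (53.7% to 59.4%) and the Pparg share 42.5%. The near-equal split of Ppard and Pparg depends on the length used: with the longest coding transcript, control levels were 16.6 ± 0.992 RPKM for Ppard and 9.24 ± 0.192 RPKM for Pparg (SD, n = 3). Ppara was the lowest of the 3 with either length.

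Ppard, the broadly expressed receptor, rose with the lean secretome in both mouse lines. In E0771 its level was 73.5, 73.4 and 75.0 CPM in control libraries, 93.3, 75.5 and 75.9 in obese and 133, 135 and 152 in lean libraries. Every lean library stood above every other, and obese replicate 1 stood apart from the other two. Lean against control gave a log2 fold change of 0.91 (SE 0.0735, edgeR adjusted p = 9.03e-08), and lean against obese 0.77 (SE 0.0729, adjusted p = 5.82e-07). The obese secretome against control gave 0.14 (95% interval -0.03 to 0.30, adjusted p = 0.423), with 0.03 without obese replicate 1 and 0.20 without obese replicate 2, neither called.

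In NMuMG, Ppard was at 56.6, 55.6 and 50.5 CPM in control, 69.8, 62.2 and 61.7 in obese and 78.1, 74.6 and 74.7 in lean libraries, so the 3 media did not overlap and obese lay between. The increase over control was 0.49 (SE 0.0507, edgeR adjusted p = 2.29e-09) and that over obese 0.22 (SE 0.0505, adjusted p = 0.000834). The obese secretome raised it over control by 0.27 (SE 0.0517, adjusted p = 0.0012), a call that E0771 did not give.

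PPARD moved the other way in SkBr3, and by little. Its levels were 51.7, 49.4, 52.7 and 49.7 CPM in control, 51.9, 52.3, 49.5 and 49.5 in obese and 45.3, 42.9, 50.0 and 48.5 in lean libraries. The lean range overlapped both others, and its highest value came from lean replicate 3. The log2 fold change was -0.16 for lean against control (SE 0.0505, edgeR adjusted p = 0.0103) and -0.15 for lean against obese (SE 0.0501, adjusted p = 0.0152). Both calls rested on lean replicate 2: without it the adjusted p was 0.0643 and 0.0878.

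PPARA was the receptor that rose in the human line. SkBr3 control libraries had 4.73, 4.52, 5.90 and 5.05 CPM, obese libraries 5.16, 5.08, 4.81 and 5.45, and lean libraries 9.09, 10.6, 7.92 and 11.1. The lean libraries were all above the rest, and obese and control overlapped. The rise was 1.89-fold over control (log2 0.92, SE 0.114, edgeR adjusted p = 9.8e-07) and 1.86-fold over obese (log2 0.89, SE 0.112, adjusted p = 2.77e-06). These values were larger than those of 96.6% and 97.7% of the genes tested. The obese secretome gave 0.03 against control on the log2 scale, with a 95% interval from -0.23 to 0.28 (adjusted p = 0.958).

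NMuMG Ppara was close to the limit of detection. There were 6, 6 and 13 counts in the control libraries, 5, 10 and 6 in obese and 11, 10 and 16 in lean, and the media overlapped. The lean effect against control was 0.60 on the log2 scale with an interval from -0.32 to 1.52 (edgeR adjusted p = 0.319). A change of the size seen in SkBr3 lies inside that interval, so its presence or absence was not detectable at this depth.

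PPARG, the adipocyte receptor, fell slightly in SkBr3 with the lean secretome. The control libraries had 9.13, 9.69, 10.3 and 10.5 CPM, the obese ones 11.4, 9.98, 9.81 and 9.73, and the lean ones 8.70, 8.35, 8.55 and 8.05. Lean values all lay under the others. The log2 fold change was -0.27 for lean against control (SE 0.0848, edgeR adjusted p = 0.0104) and -0.31 for lean against obese (SE 0.0833, adjusted p = 0.00418).

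Pparg in NMuMG had 20.1, 19.3 and 19.6 CPM in control, 24.7, 19.6 and 21.3 in obese and 20.7, 24.9 and 21.2 in lean libraries. The lean and obese ranges overlapped, and each group held 1 library well above its other two. Lean against control was 0.18 (95% interval 0.02 to 0.35, edgeR adjusted p = 0.0682). That value sat near the threshold: the adjusted p was 0.0356 without lean replicate 1 and 0.0479 without lean replicate 3, whereas without lean replicate 2 the value was 0.09 with an adjusted p of 0.43. Lean against obese was 0.02 (interval -0.15 to 0.18).

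**Figure D2:**
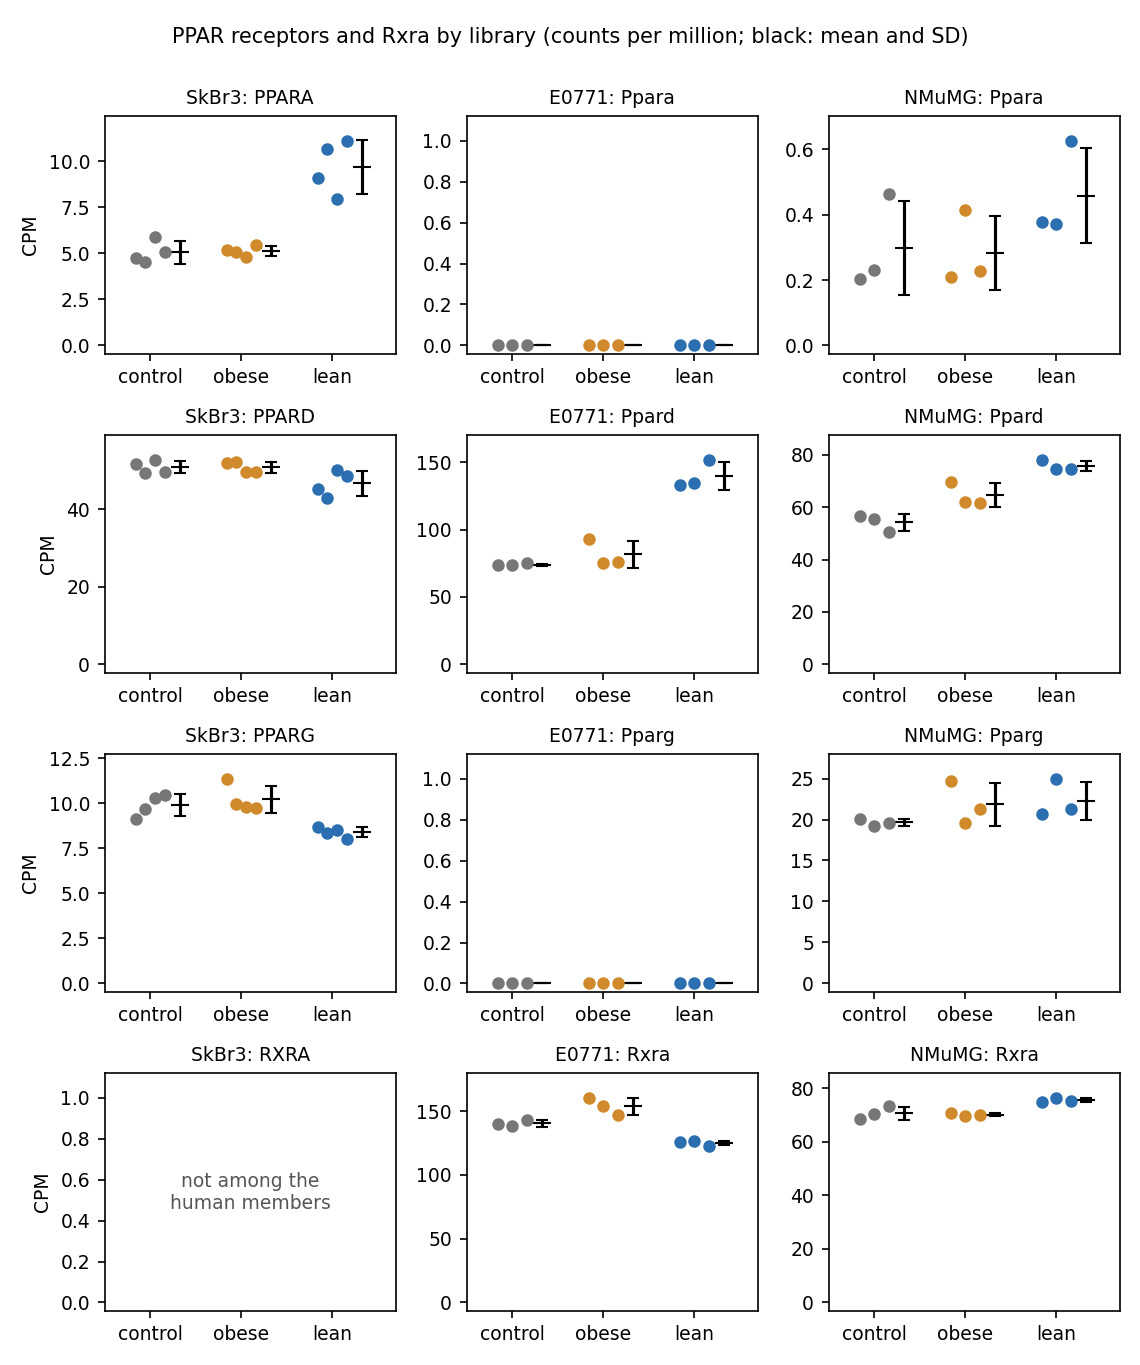
CPM (y axis) of the 3 PPAR receptors and Rxra (rows) in SkBr3, E0771 and NMuMG (columns); each point is 1 library, grey for control, orange for obese and blue for lean, with the mean and SD in black beside them. Each panel has its own linear axis from 0: PPARA in SkBr3 and Ppard in E0771 stand apart in the lean libraries, and Ppara and Pparg of E0771 lie at 0.

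Rxra, the shared partner, fell in E0771 with the lean secretome, and its values in NMuMG had the opposite sign without passing the threshold. In E0771 it stood at 139.7, 138 and 143 CPM in control, 160.3, 154 and 147 in obese and 126, 126 and 123 in lean libraries, with no overlap between media. It fell by 0.18 on the log2 scale against control (SE 0.0418, edgeR adjusted p = 0.000698) and by 0.31 against obese (SE 0.0416, adjusted p = 1.16e-06). For obese against control it was 0.13 (interval 0.04 to 0.21, adjusted p = 0.118). NMuMG libraries had 68.4, 70.2 and 73.2 CPM in control, 70.7, 69.7 and 69.9 in obese and 74.8, 76.4 and 75.4 in lean medium. Here the lean libraries were the highest, at 0.10 against control (adjusted p = 0.0561, ranging from 0.0346 without control replicate 3 to 0.253 without control replicate 1) and 0.09 against obese (adjusted p = 0.0818). 

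Angptl4 was the member with the largest change in each mouse line, and ANGPTL4 was that of SkBr3, with the lean secretome against control. In E0771 its level was 16.7, 16.5 and 18.1 CPM in control, 28.4, 17.3 and 26.9 in obese and 132, 136 and 132 in lean libraries. The lean libraries were several times above all others and close to each other, while obese replicate 2 lay inside the control range. The lean level was 7.76-fold that of control (log2 2.96, SE 0.161, edgeR adjusted p = 2.62e-06), a rise larger than that of 99.8% of the genes tested, and 5.49-fold that of obese (log2 2.46, SE 0.154).

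The obese effect in E0771 turned on that 1 library. With all libraries it was 0.50 on the log2 scale against control (95% interval 0.08 to 0.92, edgeR adjusted p = 0.243). Without obese replicate 2 it was 0.70, with an adjusted p of 1.57e-06.

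NMuMG held 9.70, 10.5 and 10.2 CPM of Angptl4 in control, 17.1, 13.8 and 15.0 in obese and 40.8, 39.1 and 36.3 in lean libraries. The 3 media formed separate steps. Lean over control was 3.84-fold (log2 1.94, SE 0.0756, edgeR adjusted p = 6.43e-20), lean against obese 2.51-fold (log2 1.33, SE 0.0724), and obese against control 1.53-fold (log2 0.61, SE 0.0846, adjusted p = 7.17e-06).

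In SkBr3 the same 3 steps appeared. ANGPTL4 was at 5.61, 4.94, 5.36 and 6.72 CPM in control, 10.5, 8.26, 8.02 and 10.5 in obese and 20.8, 20.2, 15.9 and 19.9 in lean libraries, the lowest lean value being replicate 3. Lean against control was 3.32-fold (log2 1.73, SE 0.113, edgeR adjusted p = 7.64e-10), lean against obese 2.02-fold (log2 1.01, SE 0.103, adjusted p = 6.3e-07) and obese against control 1.65-fold (log2 0.72, SE 0.12, adjusted p = 0.00583). The obese rise exceeded that of 99.2% of genes in this comparison, where few genes changed.

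PDK4 rose in the 2 lines where it was detected. In SkBr3 the levels were 3.01, 2.87, 4.00 and 3.74 CPM in control, 6.83, 5.37, 4.61 and 5.72 in obese and 9.13, 10.0, 6.41 and 8.31 in lean libraries. Lean and obese both lay above every control, and the lowest lean library, replicate 3, lay under the highest obese one, replicate 1. Lean over control was 2.45-fold (log2 1.29, SE 0.146, edgeR adjusted p = 3.43e-07) and lean against obese 1.48-fold (log2 0.57, SE 0.133, adjusted p = 0.00151). Obese against control was 1.65-fold (log2 0.73, SE 0.152, adjusted p = 0.0216). That last call was lost when control replicate 1, 2 or 4 or obese replicate 1 or 4 was left out (adjusted p 0.0959, 0.1, 0.061, 0.0862 and 0.104), with the value staying between 0.63 and 0.78 in those 5 fits.

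Pdk4 of NMuMG rose with the lean secretome against both other media. The control libraries had 3.03, 2.60 and 2.54 CPM, the obese ones 2.67, 2.19 and 1.96 and the lean ones 5.88, 5.71 and 4.73. Lean libraries were all above the others, and obese and control overlapped. Lean against control was 2.00-fold (log2 1.00, SE 0.152, edgeR adjusted p = 1.93e-06) and lean against obese 2.38-fold (log2 1.25, SE 0.16, adjusted p = 1.19e-07). For obese against control the value was -0.25 (interval -0.61 to 0.11, adjusted p = 0.517), so SkBr3 and NMuMG had opposite signs there. That difference between species was not tested.

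Ucp2 marked NMuMG and was almost silent in E0771. NMuMG had 208, 213 and 201 CPM in control, 195, 204 and 194 in obese and 252, 246 and 241 in lean libraries. The lean libraries were highest without overlap: 1.19-fold over control (log2 0.25, SE 0.0344, edgeR adjusted p = 2.92e-07) and 1.24-fold over obese (log2 0.31, SE 0.0346, adjusted p = 1.03e-08). Obese against control was -0.05 (interval -0.12 to 0.02, adjusted p = 0.468). Ucp2 shares 305 exon bases with Dnajb13 on the opposite strand (GENCODE M21), and the strand setting of the counting is not given in the sources used here, so reads of the pair may be mixed.

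E0771 gave 2, 2 and 1 counts of Ucp2 in control, 2, 3 and 6 in obese and 6, 9 and 7 in lean libraries, and the gene did not pass the filter. Fitted without the filter, over 27165 genes, lean against control was 1.90 on the log2 scale (SE 0.817, edgeR adjusted p = 0.0682). The lean counts lay above all control counts, and the unadjusted p of that edgeR fit was 0.0203, but the gene was not called at these few counts.

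**Figure D3:**
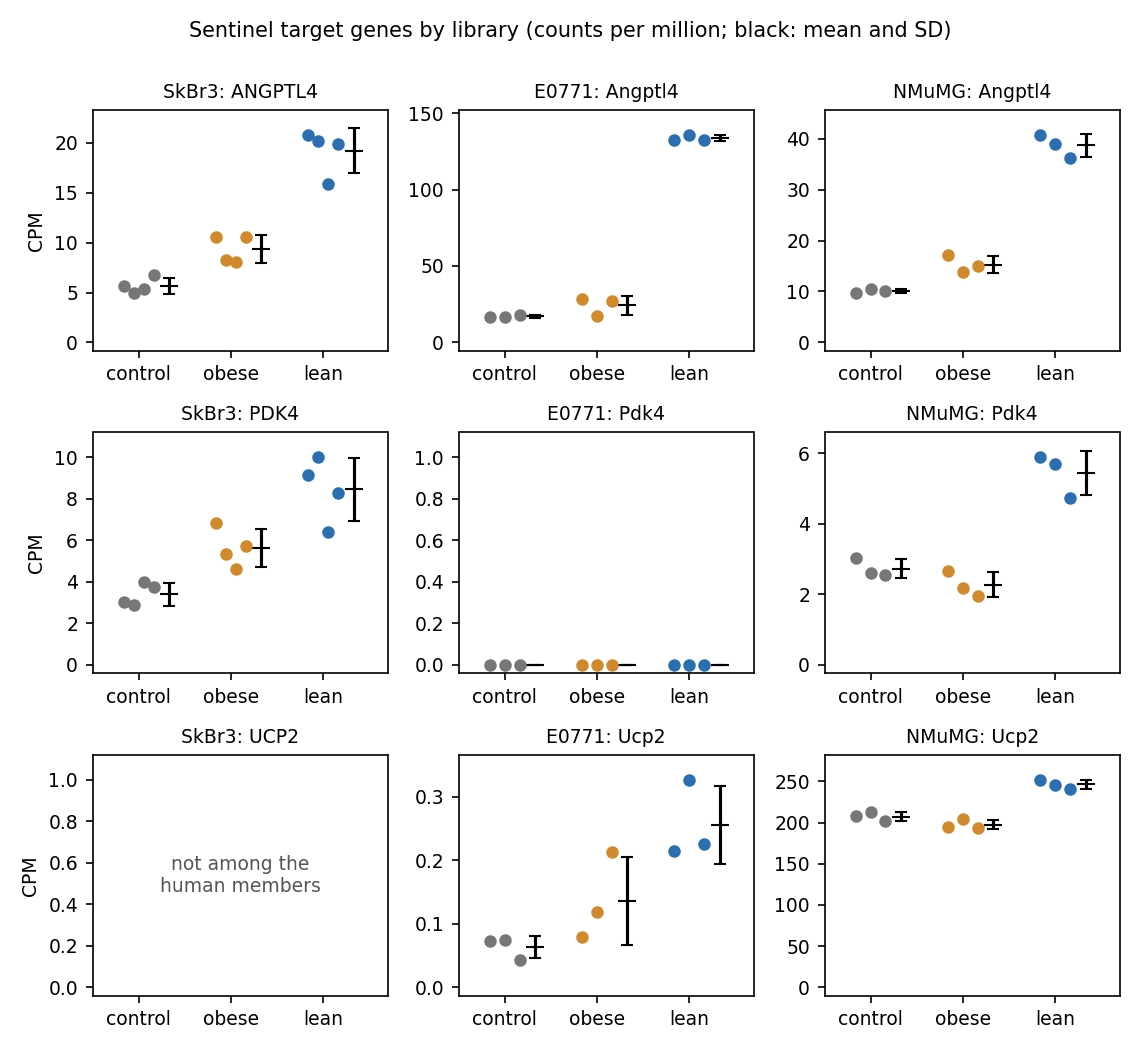
CPM (y axis) of the sentinel targets ANGPTL4, PDK4 and Ucp2 (rows) in SkBr3, E0771 and NMuMG (columns), on linear axes from 0; each point is 1 library and the black bar is the mean and SD. The lean libraries are highest for Angptl4 in all 3 lines, the obese group lies between in SkBr3 and NMuMG, Pdk4 of E0771 is at 0, and the Ucp2 panel of E0771 spans 1 to 9 counts.

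Whether the mouse lines answered differently was tested as an interaction over 16529 genes, for the 3 members measured in both. All 3 differed in lean against control (34.5% of all genes did) and all 3 in lean against obese (34.2%). The response of Angptl4 was smaller in NMuMG by 1.04 on the log2 scale for lean against control (difference -1.04, SE 0.2, edgeR adjusted p = 0.000904) and that of Ppard by 0.45 (difference -0.45, SE 0.104, adjusted p = 0.00197). For Rxra the difference was 0.25 (SE 0.057, adjusted p = 0.000405), with signs that were opposite in the 2 lines. In lean against obese the differences were -1.14, -0.57 and 0.38 in the same order (adjusted p = 0.000252, 2e-04 and 8.33e-07).

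For obese against control, 0 of 3 members differed between the lines (1.69% of all genes did). In edgeR 1 of them, Rxra, was under 0.05 before adjustment (adjusted p = 0.309), and DESeq2 called 0. The intervals of the difference, NMuMG less E0771, ran from -0.10 to 0.34 for Ppard, from -0.24 to -0.01 for Rxra and from -0.37 to 0.57 for Angptl4. Line and growth medium cannot be told apart in these differences.

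A wider list of 30 PPAR targets, most of them enzymes and carriers of fatty acid oxidation, moved in both directions with the lean secretome, more often upwards. This list and those of partners, relatives and other pathways below were written with earlier results of these data known. In E0771, lean against control called 20 of 23 tested (56.3% of all genes), 15 higher and 5 lower, with a median log2 fold change of 0.44 against -0.01 for all genes. The largest rises were in Creb3l3, a membrane-bound transcription factor of lipid metabolism (3.42), Fabp3, a fatty acid carrier protein (1.57), and Plin2, a coat protein of lipid droplets (1.48). Creb3l3 rested on at most 5 counts in a control library and at most 35 in a lean one. Fabp3 had an SE of 0.364, against 0.0691 for Plin2. It was not called for lean against obese (0.63, edgeR adjusted p = 0.106). The largest falls were in Acaa1a, a peroxisomal thiolase (-0.81), Acsl3, an acyl-CoA synthetase (-0.65), and Hadha, the alpha subunit of the mitochondrial trifunctional protein (-0.29).

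NMuMG gave 13 calls of 21 tested for lean against control (38.2% of all genes), 11 higher and 2 lower, with a median of 0.14 against -0.0046 for all genes. Creb3l3 (2.63), Acot2, a mitochondrial acyl-CoA thioesterase (0.99), and Plin2 (0.89) rose most, and Fabp5 (-0.52) and Acsl3 (-0.38) fell. Plin2 was at 172 ± 3.03 CPM in control, 189 ± 11.2 in obese and 318 ± 6.52 in lean libraries (SD, n = 3), and in E0771 at 55.4 ± 6.26, 76.4 ± 6.04 and 156 ± 4.83. Creb3l3 in NMuMG was at 1.03 ± 0.384, 0.924 ± 0.383 and 6.44 ± 1.09 CPM in the same order.

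Against the obese secretome, lean medium called 14 of 23 list genes in E0771 (52.7% of all genes; 8 higher, 6 lower, median 0.10 against 0.0035 for all genes) and 16 of 21 in NMuMG (35.0% of all genes; 14 higher, 2 lower, median 0.17 against -0.0023). The leaders were Creb3l3 (2.72), Fgf21, a secreted metabolic hormone (1.71), and Plin2 (1.02) in E0771, and Creb3l3 (2.79), Acot2 (0.93) and Vnn1, a pantetheinase (0.82), in NMuMG. Fgf21 rested on at most 5 counts in an obese library and 19 in a lean one. In E0771, Acaa1a (-0.75), Acsl3 (-0.58) and Hadha (-0.32) fell most. Genes of mitochondrial fatty acid oxidation went both ways there: Hadhb, Acadm and Cpt2 also fell (-0.20, -0.19 and -0.18), while Acot2 (0.88), Slc25a20 (0.78) and Etfdh (0.26) rose.

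Obese against control called 5 of 23 in E0771 (2.61% of all genes), all higher: Cpt1a, the gatekeeper of mitochondrial fatty acid entry (0.50), Slc25a20, the carnitine-acylcarnitine carrier (0.49), Plin2 (0.46), Acadl (0.37) and Acaa2 (0.36). The median of the list was 0.16, and the count fell to 2 without control replicate 1. In NMuMG 3 of 21 were called (5.01% of all genes), 1 higher (Plin2, 0.15) and 2 lower (among them Acsl3, -0.14), with a list median of -0.06, and the count was 1 without control replicate 1, control replicate 3 or obese replicate 3.

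**Figure D4:**
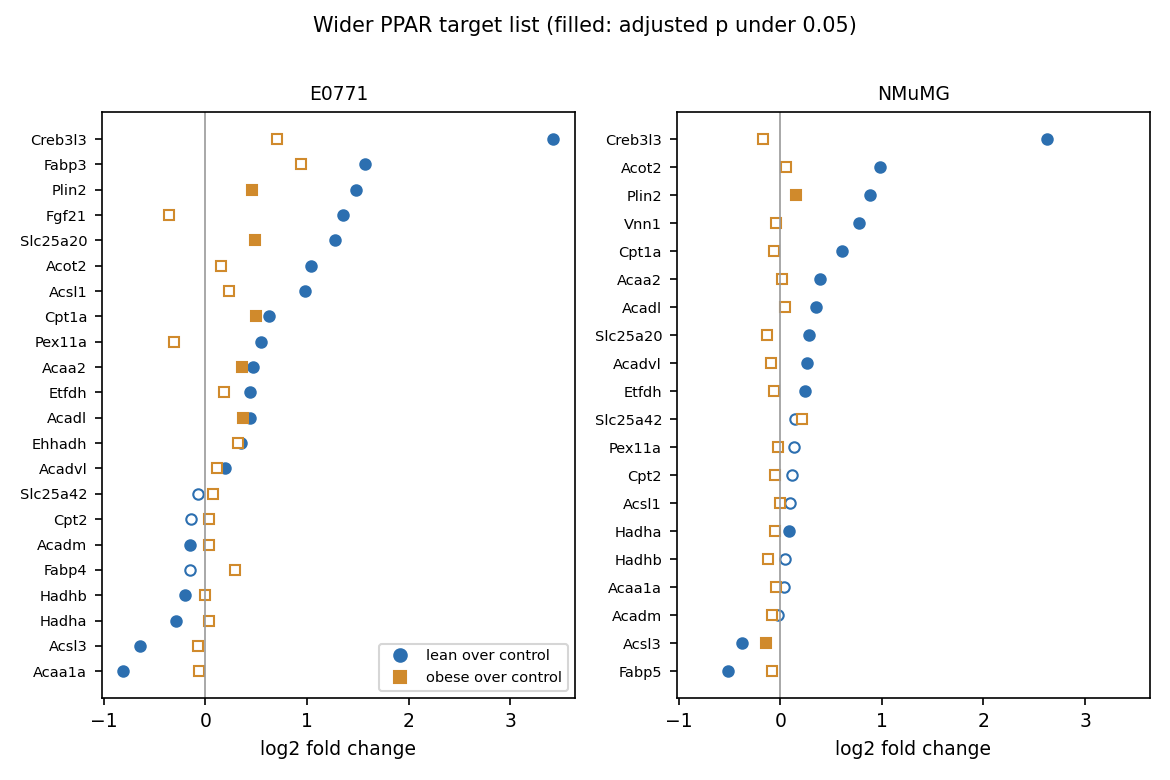
Log2 fold change (x axis) of tested genes of the wider target list in E0771 and NMuMG (1 gene not shown), ordered by the lean against control value; blue circles are lean against control, orange squares obese against control, and filled symbols have an adjusted p under 0.05. The circles spread from -0.81 to 3.42 in E0771 and from -0.52 to 2.63 in NMuMG, while most squares lie close to 0.

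Genes that work with the receptors were called in E0771 at a share not far from that of all genes. Of 13 partners and coregulators tested, 9 were called for lean against control (56.3% of all genes were), 2 higher and 7 lower (median -0.14, all genes -0.01). Those that fell included Lpin1, a phosphatidate phosphatase that also acts as a coactivator (-1.39), and the acetyltransferase Ep300 (-0.39), and Nrip1 (0.16) and Hdac3 (0.15) rose. Lean against obese called 8 of 13 (52.7% of all genes; 2 higher, 6 lower, median -0.12), led by Lpin1 (-1.18) and Ppargc1a (-0.53).

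In NMuMG the same list gave 2 calls of 14 for lean against control (38.2% of all genes), Ncoa2 (0.17) and Med1 (-0.13), a count that was 5 without lean replicate 1 and 1 without lean replicate 3. Lean against obese gave 6 (35.0% of all genes), 2 higher and 4 lower, and 3 without lean replicate 3. The 6 were led by Ppargc1b at -0.63 (SE 0.204) and Lpin1 at 0.33 (SE 0.0831). Lpin1 was thus lower in E0771 and higher in NMuMG when lean was set against obese, a difference that was not tested. Obese against control gave 0 of 14 (5.01% of all genes), with 1 at an unadjusted p under 0.05 in edgeR, and 1 call without obese replicate 2.

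Relatives of the sentinels that were called fell in E0771 and went both ways in NMuMG. Pdk2, another pyruvate dehydrogenase kinase, fell in E0771 with lean against control (-1.36), as did the mitochondrial carrier Slc25a27 (-1.19) and the phosphatase Pdp1 (-0.72), which reverses the action of the kinases. In that comparison 7 of 11 tested relatives were called, near the 56.3% of all genes, and all were lower (median -0.26, all genes -0.01). NMuMG had 6 of 12 called (38.2% of all genes), 2 higher and 4 lower (median 0.03). Pdk1 (-0.71), Angptl8 (-0.63, SE 0.245) and Slc25a27 (-0.46) fell, and Lmf1, a lipase maturation factor (0.33), and Pdp1 (0.26) rose. Pdk4 and Pdk1 therefore moved apart in NMuMG, where Pdk1 was at 26.0 ± 1.47 CPM in control and 15.8 ± 1.86 in lean libraries (SD, n = 3).

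Lean against obese called 5 of 11 relatives in E0771 (52.7% of all genes), all lower and led by Pdk2 (-1.33). In NMuMG it called 9 of 12 (35.0%), 4 higher and 5 lower, led by Angptl6 (1.00, SE 0.279) and Angptl8 (-0.65, SE 0.249). Over 12 alternatives the NMuMG count ranged from 4 to 9. It was 4 or 5 in several, among them the fits without lean replicate 2 or 3 or obese replicate 1 or 3, and 4 with DESeq2. Obese against control called 1 in each line (2.61% and 5.01% of all genes), Slc25a27 in E0771 (-0.53, not called without control replicate 1 or obese replicate 3) and Angptl2 in NMuMG (0.30).

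Angptl4 and Pdk4 are also known targets of other pathways, so genes of those were counted beside them. For lean against control, 56.3% of all genes were called in E0771 and 38.2% in NMuMG. Of glucocorticoid-responsive genes, 5 of 8 were called in each mouse line, 2 higher and 3 lower: Dusp1 rose (1.18 in E0771, 0.89 in NMuMG), and Tsc22d3 (-0.83 and -1.05) and Cdkn1c (-0.97 and -1.19) fell. Of hypoxia-responsive genes, 7 of 9 were called in E0771, 5 of them higher, led by Adm at 2.49, Slc2a1 at 0.97 and Bnip3 at 0.78. Pdk1 (-0.38) and Vegfa (-0.21) were lower there. In NMuMG 5 of 8 were called, 3 higher (Egln3 at 1.03, Slc2a1 at 0.56 and Vegfa at 0.54), and Pdk1 and Ndrg1 lower. FOXO-responsive genes gave 5 of 7 in E0771, all lower and led by Ccng2 (-1.52), and 6 of 9 in NMuMG, 3 in each direction with Irs2 at 0.54 and Sesn1 at -0.48, a count that was 3 without control replicate 1 or lean replicate 1. For obese against control, where 5.01% of all NMuMG genes and Angptl4 were called, NMuMG had 4 of 8 glucocorticoid-responsive genes called: Klf9 (0.30), Sgk1 (0.27) and Fkbp5 (0.20, against -0.15 with the lean secretome) higher and Tsc22d3 (-0.33) lower. That count was 2 without control replicate 1 or obese replicate 1. In the same comparison 3 of 8 hypoxia-responsive genes were called, Egln3 (0.43) and Slc2a1 (0.23) higher and Ndrg1 (-0.26) lower, and 1 of 9 FOXO-responsive genes, Sesn3 (-0.30). E0771, with 2.61% of all genes called, had 0 of 8, 0 of 9 and 1 of 7 of the same lists. Of these, 1 glucocorticoid-responsive and 2 hypoxia-responsive genes had an unadjusted p under 0.05 in edgeR, and DESeq2 called 0 of both lists. Over 12 alternatives the count ranged from 0 to 1 for the glucocorticoid list and from 0 to 2 for the hypoxia list. For lean against obese, 52.7% of all genes were called in E0771 and 35.0% in NMuMG. E0771 then had 6 of 8 glucocorticoid-responsive genes called (2 higher, 4 lower), 7 of 9 hypoxia-responsive (5 higher, 2 lower) and 4 of 7 FOXO-responsive (all lower). NMuMG had 5 of 8 (2 higher, 3 lower), 6 of 8 (3 in each direction) and 7 of 9 (5 higher, 2 lower) in that order. The last count ranged from 4 to 7 over 12 alternatives. The part of these pathways in the change of Angptl4 and Pdk4 was not tested.

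Adipocyte RNA was close to 0 in the mouse libraries. The summed level of 10 adipocyte markers ran from 1.06 to 1.61 CPM in E0771 over all media. In NMuMG it ran from 1.82 to 2.32 CPM in control, from 1.32 to 1.96 in obese and from 3.52 to 4.11 in lean libraries. Cidec, a lipid droplet protein, was at 2.02 ± 0.0464 CPM in the lean libraries against 0.55 ± 0.2 in control (SD, n = 3), and Adipoq had at most 2 counts in any NMuMG library. E0771 lean libraries had a lower sum of mesenchymal markers (2286 to 2509 CPM, against 3866 to 3995 in control), where Col1a1 (-1.75) and Vim (-0.59) fell. In NMuMG the summed epithelial markers were highest in the lean libraries. Of 7 tested, 3 were called for lean against control (38.2% of all genes were) and 5 for lean against obese (35.0%). All those called in these 2 comparisons were higher, led by Cldn4 (1.25, and 1.19 with an SE of 0.271). For obese against control 2 of the 7 were called (5.01% of all genes), each of them lower. The part of these markers in the results was not tested.

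Genes with the pattern most like that of each member were sought among all genes. Over the 18 mouse libraries, with log2 CPM centred within each line and 9437 genes compared, Ppard was most like Ehd1 (Pearson's r = 0.989), Psma7 (0.984) and Slc2a1, also on the hypoxia list (0.982). Angptl4 was most like Alas1 (0.988), Rras2 (0.985) and Srxn1 (0.982), and Rxra most like Cnpy3 (0.909), Akr7a5 (0.908) and Mfsd13a (0.904). Ppard and Angptl4 had r = 0.964 with each other, and Rxra had -0.519 with Ppard and -0.459 with Angptl4. The points share their media and lines, so these values describe a pattern over 6 groups.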

How the data were processed

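Poly(A) RNA libraries were made with a directional kit and read as paired 150 bp reads, per the labels' protocols. The authors deposited raw counts per Ensembl gene ID in a human and a mouse table. cutadapt 1.16, STAR 2.7.9a, featureCounts 1.6.3 and the mouse build GRCm39 are named in the submitters' processing notes. The human build, the annotation release and the strand setting are not given in the sources used here. Coordinates of upstream windows are those of RefSeq on GRCm38.p6 and were not joined to the counts.

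Mouse symbols came from GENCODE M21 (52073 of 56980 IDs matched) and exon lengths for RPKM from the same release, another build than that of the counts. Each line was fitted alone with its 3 media in edgeR 4.0.16 under R 4.3.3: filterByExpr, TMM, robust quasi-likelihood F tests and Benjamini-Hochberg adjustment within a contrast, with a threshold of 0.05. CPM used library totals, log2 CPM a prior count of 2, and detection a floor of 3 counts. DESeq2 1.42.0 was an alternative. Intervals are at 95%, and intervals and floors from counts cover reads without molecular identifiers. Counts of replicate pairs differed by more than counting error (chi-square over its degrees of freedom, 1.99 to 15.2), so none was a copy of another.

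The members and lists were chosen with earlier results of these data known. Genes of a list were named by size: at most 3 called per direction, line and contrast, with a few others named as illustration after their values were seen. Likeness took the 3 highest correlations per member tested in both mouse lines. Genes compared were tested in both lines, had a mean log2 CPM of 2 or more and bore no clone or model name. Of the symbols in the lists, 120 of 121 matched. Fabp4 is in both the wider target list and the adipocyte markers, Pdk1 in both the hypoxia list and that of relatives. Some list genes are counted but not reported here by name.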

Additional observations from a re-analysis of the deposited data

Results flagged for a closer look

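PPARG in SkBr3 was flagged for 1 library that stood away from its group. Obese replicate 1, at 11.4 CPM, was separated from the next obese library by 0.843 of the range of the group, above Dixon's critical value for 4 samples. Of the 15 groups of 4 examined it was the only one past that value, and chance flags about 1 in 20 groups. Leaving this library out changed no call on PPARG.

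The remaining values were flagged because the effect of the lean secretome differed between the mouse lines by an interaction test in edgeR. As NMuMG less E0771 on the log2 scale, lean against obese gave -0.57 for Ppard, 0.38 for Rxra and -1.14 for Angptl4. Lean against control gave -0.45 for Ppard, 0.25 for Rxra and -1.04 for Angptl4. All 6 remained called under each alternative run for them. The lines also differed in their growth medium.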

How the results depend on the processing

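For lean against control and lean against obese, over 12 alternatives in each mouse line and 14 in SkBr3, the members called stayed at 3 in E0771, at 4 to 5 in NMuMG and at 4 to 5 in SkBr3. Member counts for obese against control moved with single libraries in E0771 and SkBr3 but not in NMuMG. Leaving out 1 library gave 0 to 1 member in E0771, 1 to 2 in SkBr3 and 2 in NMuMG. Over all genes the same comparison ranged from 79 to 498 in E0771 (360 with all libraries), from 384 to 893 in NMuMG (752) and from 20 to 374 in SkBr3 (172). Without a filter it gave 626 in E0771 and 539 in SkBr3, where DESeq2 gave 388 and a fit of the 2 groups alone 849; the cause was not tested.

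A change of sign on leaving out 1 library occurred for values that were not called in any of those fits. For obese against control the values ranged from -0.026 to 0.10 for PPARA, from -0.025 to 0.011 for PPARD and from -0.0083 to 0.068 for PPARG in SkBr3, from -0.43 to 0.40 for Ppara and from -0.018 to 0.033 for Rxra in NMuMG, and from -0.087 to 0.23 for the difference of the mouse lines in Angptl4. For lean against obese, Pparg in NMuMG ranged from -0.077 to 0.12. NMuMG Pparg for lean against control also passed the threshold without the filter (adjusted p = 0.0426) and with the 2 groups alone (0.0313) in edgeR, and Rxra with DESeq2 size factors (0.0487) or a filter at 1 CPM (0.043).

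Residuals of same-numbered libraries correlated between -0.0942 and 0.11 in E0771, -0.0285 and 0.025 in NMuMG and -0.0452 and 0.0523 in SkBr3. These low values gave no sign of pairing by replicate number, but a weaker shared batch could go unseen. A fit with the replicate block left the member counts as they were, and gave 355, 722 and 223 genes for obese against control in E0771, NMuMG and SkBr3. With 3 or 4 libraries a group, genes at a few counts (Ppara in NMuMG, Ucp2 in E0771) were beyond what this depth could resolve.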
